A study of Mus musculus with 4 samples.

Results

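The subject is 9 cytokine genes of lymphocytes, Ifng, Il2, Il4, Il10, Il13, Il17a, Csf2, Lta and Ltb, in immune cells of the mouse liver. They were taken by symbol from the 32344 genes listed in the deposited matrices, of which 15740 had a count in the barcodes kept, and each of the 9 symbols matched 1 row. Each member was followed in every barcode with at least 500 unique molecular identifiers (UMIs, counts of captured molecules), 32878 barcodes in all. The questions were which cells held its UMIs, how few barcodes carried most of them, and how its level compared between genotypes.

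Digested livers went over a Percoll gradient, and cells with CD45, a surface protein of white blood cells, were sorted and fixed. Probes for the mouse transcriptome were hybridised to the fixed cells before droplet capture, so a count reports a ligated probe pair and not the sequence of a transcript. The groups were 1 library of GS(+/delta)Hep mice, 1 library of URI(+/delta)Hep mice and 2 libraries of WT mice. The genotype labels read as deletion of 1 allele in hepatocytes, of glutamine synthetase (GS) or of URI. All groups, WT included, received tamoxifen for 1 week, and each library pooled 5 mice. The Cre driver, age and sex are not given in the sources used here. Since the deletions are in hepatocytes, Glul and Uri1 counts in sorted white blood cells do not check the labels.

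The GS, URI, WT replicate 1 and WT replicate 2 libraries kept 7846, 9096, 8483 and 7453 barcodes, with medians of 4448, 4973, 3763 and 2659 UMIs. No full barcode was shared between libraries, whereas 1480 to 2076 droplet barcodes occurred in both libraries of a pair. WT replicate 2 stood apart in stress-responsive transcripts: 25 immediate early genes summed to 24885 counts per 1000000 UMIs (CPM) in GS and 26472 CPM in URI, against 18476 and 40868 CPM in the 2 WT libraries. Transcripts of 4 Y-linked genes summed to 174 CPM in GS and 432 CPM in URI, against 9.83 and 178 CPM in WT. Hepatocyte transcripts (8 genes) were low, at 39.2 and 39.8 CPM in GS and URI and 52.9 and 68.9 CPM in WT.

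Effector cytokines are the secreted or membrane-bound signals by which activated lymphocytes instruct their neighbours. Liver lymphocytes include many natural killer (NK) cells, invariant natural killer T (NKT) cells and gamma-delta T cells, which hold ready-made cytokine transcripts or chromatin open for them and answer within hours of stimulation. Interferon gamma (Ifng) activates macrophages, interleukins 4 and 13 (Il4, Il13) drive type 2 responses, interleukin 17A (Il17a) recruits neutrophils, interleukin 2 (Il2) feeds T cell growth, interleukin 10 (Il10) restrains inflammation, GM-CSF (Csf2) acts on myeloid cells, and lymphotoxins (Lta, Ltb) shape lymphoid tissue.

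Several members lie close together in the genome (GRCm38). Il4 (chr11:53602982-53618669, minus strand) and Il13 (chr11:53631324-53634702, minus strand) are 12654 bases apart in the type 2 cytokine cluster. On chromosome 17, Lta (chr17:35203165-35205351, minus strand) and Ltb (chr17:35194439-35196320, plus strand) flank Tnf at gaps of 1157 and 3060 bases. Promoters of 4 members are shown by where the mean level was highest: Il4 and Il13, which shared basophils, Ifng (NK barcodes) and Il17a (Gamma-delta T barcodes). Each runs from 250 bases before to 50 after a RefSeq gene start (GRCm38.p6), read 5′ to 3′ on the gene's strand. Capitals mark the core letters bound by NFAT, the calcium-dependent factor of activated lymphocytes, as GGAAA or its reverse complement TTTCC.
Il4, chr11:53618616-53618915, minus strand: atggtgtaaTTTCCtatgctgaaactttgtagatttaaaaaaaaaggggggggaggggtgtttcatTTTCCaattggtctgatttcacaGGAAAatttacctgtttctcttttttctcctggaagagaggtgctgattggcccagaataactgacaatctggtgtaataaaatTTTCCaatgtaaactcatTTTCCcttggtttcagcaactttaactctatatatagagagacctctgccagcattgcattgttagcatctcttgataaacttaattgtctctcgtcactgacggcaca
Il13, chr11:53634653-53634952, minus strand: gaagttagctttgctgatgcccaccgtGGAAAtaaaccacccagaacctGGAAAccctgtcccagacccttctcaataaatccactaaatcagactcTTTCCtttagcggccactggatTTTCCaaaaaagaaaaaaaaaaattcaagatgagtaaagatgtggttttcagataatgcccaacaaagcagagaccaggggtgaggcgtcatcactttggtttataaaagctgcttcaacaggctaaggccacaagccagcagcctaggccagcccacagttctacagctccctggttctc
Ifng, chr10:118440796-118441095, plus strand: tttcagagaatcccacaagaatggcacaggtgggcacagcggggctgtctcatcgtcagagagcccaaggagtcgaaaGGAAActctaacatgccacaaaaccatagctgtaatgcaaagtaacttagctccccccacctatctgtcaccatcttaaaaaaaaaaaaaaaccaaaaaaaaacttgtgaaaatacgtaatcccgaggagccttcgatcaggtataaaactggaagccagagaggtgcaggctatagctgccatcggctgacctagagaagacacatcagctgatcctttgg
Il17a, chr1:20730655-20730954, plus strand: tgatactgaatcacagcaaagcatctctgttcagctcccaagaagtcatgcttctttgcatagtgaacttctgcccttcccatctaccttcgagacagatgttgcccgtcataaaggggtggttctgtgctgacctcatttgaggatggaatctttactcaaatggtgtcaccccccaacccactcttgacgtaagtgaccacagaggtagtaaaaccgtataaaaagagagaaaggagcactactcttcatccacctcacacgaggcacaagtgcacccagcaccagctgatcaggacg
The core letters occurred 5 times in the Il4 window, 4 times in the Il13 window, 1 time in the Ifng window and 0 times in the Il17a window. They were counted on both strands. The other RefSeq start of Il4 (chr11:53617289-53617588) had 1. Of 32851 mouse promoters of the same length, 61.3% held the letters at least 1 time and 2.65% at least 4 times, and the median was 1. Among the members not printed, Csf2 and Lta had 3 each, Il2 had 2 and Ltb had 1. These are matches of letters and do not show binding.

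Source cells were gated on raw marker UMIs, each barcode going to 1 gate. Over the 4 libraries the gates held 3375 CD4 T, 4883 CD8 T, 2656 NKT (CD3+ CD8- with Zbtb16 or Klrb1c), 819 Gamma-delta T, 2587 NK, 166 ILC1 and 177 basophil barcodes. Genes used for gating are no test of a gate. The ILC1 gate, for innate lymphocytes akin to NK cells, had 5 listed markers, all of them gating genes. They summed to 2489 and 2357 CPM in GS and URI and to 2966 and 1667 CPM in WT. The NK gate held 2234 and 1887 CPM of them in GS and URI and 2322 and 1175 CPM in WT. Ncr1 and Klrb1c among them count towards entry to both gates, so these sums cannot show how distinct the gates are. Barcodes with both T and B cell markers (2134, median 5468 UMIs) formed a separate mixed gate. T cells of unclear lineage formed a gate of 3005 barcodes (other T), and B cells one of 7402.

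**Figure D1:**
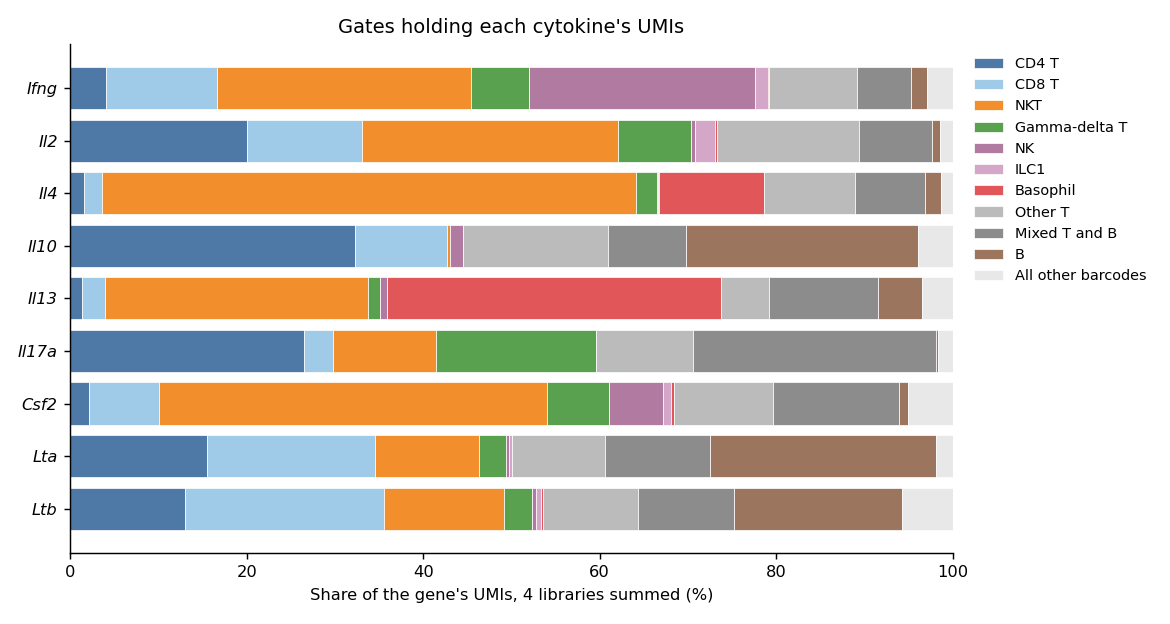
Share of each cytokine's UMIs (horizontal axis, %, 4 libraries summed) held by each gate, one bar per gene. NKT barcodes held 60.5% of Il4 UMIs and basophils 37.9% of Il13 UMIs, while B cells held 26.2% of Il10 and 25.6% of Lta UMIs.

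The share held by each gate, drawn in the plot of gates holding each cytokine's UMIs, separated the members into several patterns. The 7 source gates together held 79.2% of Ifng UMIs, 78.7% of Il4, 73.8% of Il13, 73.3% of Il2 and 68.4% of Csf2. They held less of Il17a (59.6%), Ltb (53.6%), Lta (50.0%) and Il10 (44.5%). For Il10, Lta and Ltb much of the rest lay in B cells, with 26.2%, 25.6% and 19.1% of UMIs. For Il17a it lay in the mixed gate, with 27.5%.

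UMIs of Ifng came from NKT (28.8%), NK (25.6%), CD8 T (12.6%), Gamma-delta T (6.55%), CD4 T (4.04%) and ILC1 (1.53%) barcodes. Its level in NK barcodes was 1300 CPM in GS and 1200 CPM in URI, against 794 and 1039 CPM in WT. In NKT barcodes it was 818 CPM in GS and 877 CPM in URI, against 517 and 1037 CPM in WT. In CD8 T barcodes it was 279 CPM in GS and 272 CPM in URI, against 98.3 and 218 CPM in WT. In every library Ifng was thus several-fold higher in the NK and NKT gates than in CD8 T barcodes, and WT replicate 1 was the lowest of the 4 in these 3 gates.

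Gates were compared by the edgeR quasi-likelihood method on the 28 sums of 7 gates and 4 libraries, with library as a term and Benjamini-Hochberg adjustment over all genes. By mean level the Ifng order was NK (1083 ± 221 CPM, SD, n = 4), ILC1 (867 ± 383), NKT (812 ± 218), Gamma-delta T (702 ± 241), CD8 T (217 ± 83.6), CD4 T (117 ± 37.0) and basophil (28.3 ± 25.4). Neighbours from NK down to Gamma-delta T did not differ past the threshold of 0.05, with edgeR adjusted p values of 0.0867, 0.753 and 0.423, whereas NK exceeded NKT by 0.55 on the log2 scale (SE 0.14, adjusted p = 0.00139). Gamma-delta T exceeded CD8 T by 1.74 (SE 0.15, edgeR adjusted p = 8.50e-11) and CD8 T exceeded CD4 T by 0.89 (SE 0.15, adjusted p = 4.29e-05). Of the 21 pairs of gates, 17 differed for Ifng. Over all genes and pairs 36.4% of tests were called, so differences between these gates were common. The share of genes called was 51.2% for NKT against NK, 46.1% for CD8 T against NKT, 42.6% for CD4 T against NKT, 58.2% for CD8 T against NK, 57.4% for CD4 T against NK and 37.0% for Gamma-delta T against NK. It was 22.2% for CD4 T against CD8 T, 30.0% for CD4 T against Gamma-delta T, 28.7% for CD8 T against Gamma-delta T and 11.3% for NKT against Gamma-delta T. For ILC1 it was 8.95% against Gamma-delta T, 10.4% against NKT, 16.5% against NK, 27.8% against CD4 T and 28.2% against CD8 T. For basophils it was 53.2% against CD8 T, 51.1% against CD4 T, 50.1% against NKT, 47.8% against Gamma-delta T, 47.0% against NK and 38.2% against ILC1. Such shares depend on the number of barcodes in a gate as well as on likeness, so they do not measure distance.

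A UMI of Ifng was found in 68.5% of NKT, 67.7% of NK, 67.5% of ILC1, 51.8% of Gamma-delta T, 20.8% of CD8 T and 11.8% of CD4 T barcodes. With each barcode thinned to 1000 UMIs the shares were 38.6%, 42.8%, 43.1%, 29.5%, 9.72% and 5.70%. Neutrophils with at least 100 S100a8 and S100a9 UMIs, which should lack Ifng, had a share of 1.45% (0.385% thinned) at a median of 3772 UMIs, against medians of 5660 in NKT and 3917 in NK barcodes. Among CD8 T barcodes, Tbx21, which encodes the Ifng activator T-bet, was detected in 66.8% of those with Ifng and 16.2% of those without. NK barcodes with and without Ifng differed less, with Tbx21 in 91.2% and 81.0%. Barcodes with a cytokine were deeper throughout (in CD8 T barcodes a median of 6018 UMIs with Ifng), and the part of depth in these co-detections was not tested.

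Regulators and receptors from lists of related genes were described in the same gates. Tbx21 ranged from 885 to 1011 CPM over the 4 libraries in the NK gate and from 518 to 532 CPM in the NKT gate, against 52.9 to 90.2 CPM in CD4 T barcodes. Il2rb, the shared receptor chain for interleukins 2 and 15, was the gene whose level followed Ifng most closely across the 28 sums (r = 0.957 on log2 CPM + 10, a description over sums that share libraries), followed by Gpc1 and Rgs3 (r = 0.955 and 0.951). The receptor chains of interferon gamma itself ran opposite ways across gates. Ifngr1 lay between 1247 and 1700 CPM in NK and between 357 and 557 CPM in CD4 T barcodes, while Ifngr2 lay between 3.34 and 6.84 CPM in NK and between 94.8 and 125 CPM in CD4 T barcodes.

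**Figure D2:**
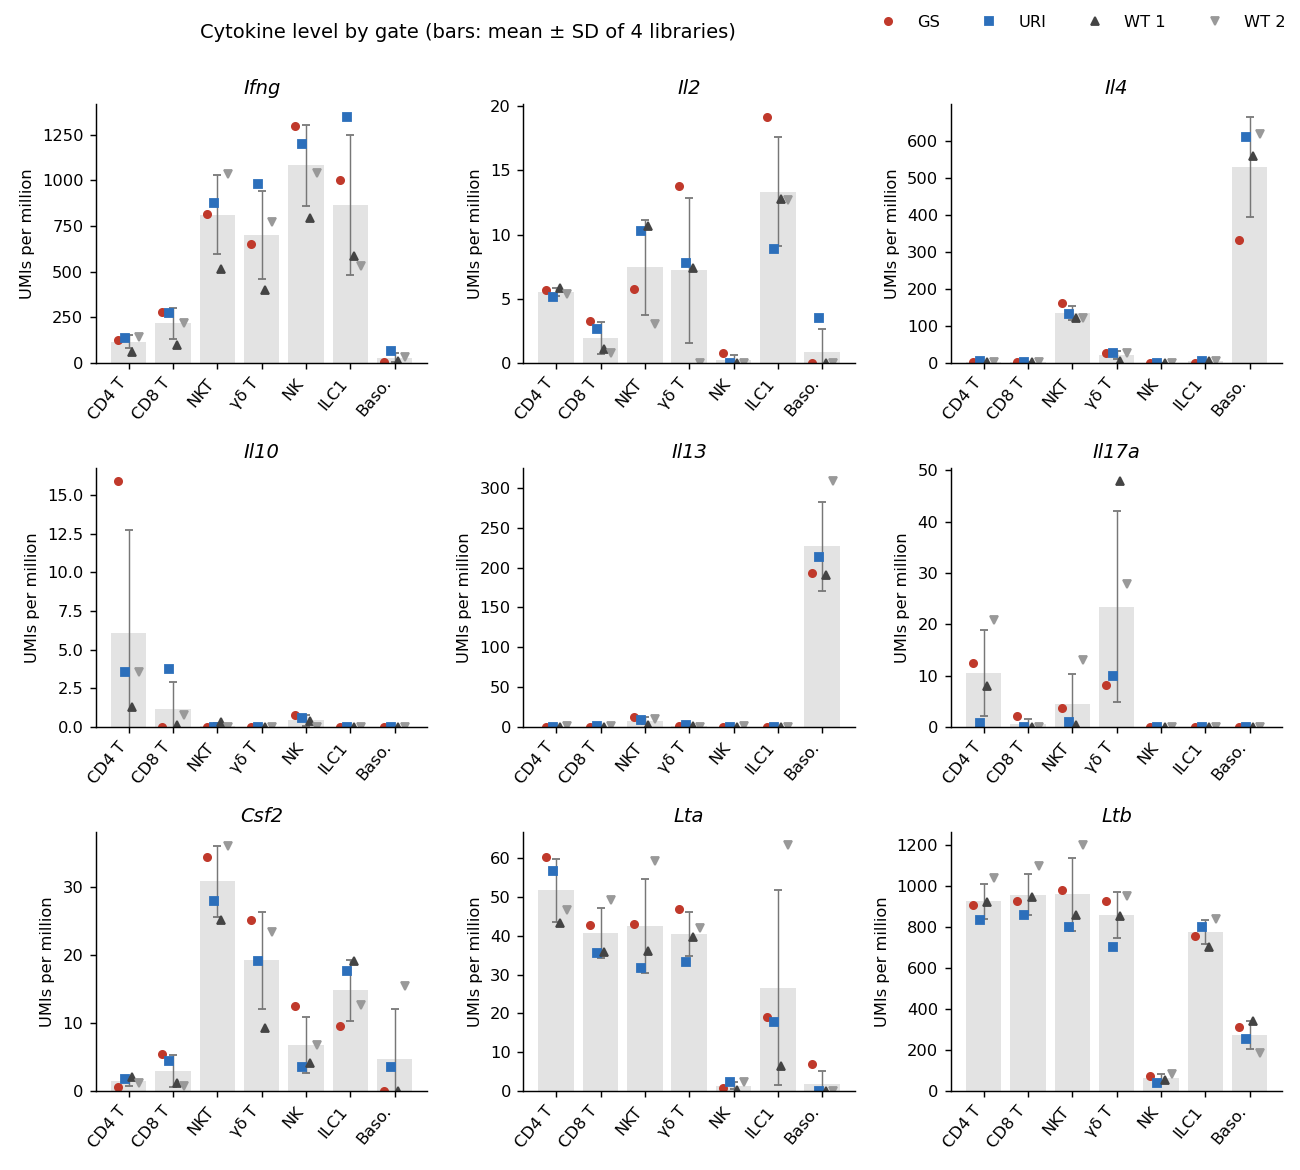
Level of each cytokine (vertical axis, UMIs per 1000000, a separate scale for each gene) in 7 gates; grey bars are means of 4 libraries, whiskers are SD cut at 0, and symbols are libraries. Il4 and Il13 peaked in basophils (529 and 227 CPM), Ifng in NK barcodes (1083 CPM) and Il17a in Gamma-delta T barcodes (23.5 CPM).

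Il4 and Il13 shared basophils as their densest source. Il4 in basophils was at 331 CPM in GS and 610 CPM in URI, against 559 and 618 CPM in WT. In NKT barcodes Il4 was at 163 CPM in GS and 131 CPM in URI, against 121 and 122 CPM in WT. Every library therefore had more Il4 per UMI in basophils than in NKT barcodes, although the NKT gate, with far more barcodes, held 60.5% of all Il4 UMIs and basophils 12.0%. The mean was 529 ± 135 CPM in basophils and 134 ± 19.5 CPM in NKT barcodes (SD, n = 4), a difference of 2.54 (log2, SE 0.17, edgeR adjusted p = 6.55e-14), and NKT exceeded Gamma-delta T by 2.67 (SE 0.22, adjusted p = 2.38e-10). In URI, 93 of 174 basophil Il4 UMIs lay in 1 barcode. Without the highest barcode of each library the basophil levels were 263 CPM in GS and 287 CPM in URI, against 430 and 500 CPM in WT, still above NKT.

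Il13 was at 193 CPM in GS and 214 CPM in URI basophils, against 190 and 309 CPM in WT basophils. NKT barcodes had 12.7 CPM in GS and 8.16 CPM in URI, against 2.00 and 9.54 CPM in WT. In NKT barcodes 36 of 64 Il13 UMIs of GS and 25 of 46 of URI lay in 1 barcode each, against 2 of 6 and 2 of 22 in WT. Without the highest barcode of each library the NKT levels were 5.58 CPM in GS and 3.75 CPM in URI, against 1.34 and 8.69 CPM in WT, so GS then lay inside the WT range. The gates did not overlap, and basophils exceeded NKT by 5.38 on the log2 scale (SE 0.34, edgeR adjusted p = 6.87e-14). Basophils rested on few barcodes, 29 in GS and 55 in URI, against 55 and 38 in WT, with 28, 61, 46 and 40 Il13 UMIs.

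A UMI of Il4 was found in 50.3% of basophils and 35.0% of NKT barcodes (22.7% and 10.7% after thinning), and a UMI of Il13 in 31.6% and 1.69% (15.7% and 0.384%). In neutrophils with at least 100 S100a8 and S100a9 UMIs the shares were 0.0427% for Il4 and 0 of 2343 for Il13. The basophil gate's own median was 4363 UMIs. Of basophil barcodes with Il13, 62.5% also had Il4 (35 of 56, exact 95% interval 48.5% to 75.1%), against 44.6% of those without. NKT barcodes with Il13 had Il4 in 53.3% (24 of 45, exact interval 37.9% to 68.3%), against 34.7% of those without. Intervals cover counting error only, and barcodes are not replicates.

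Type 2 cytokines and Ifng were not exclusive in NKT barcodes: Ifng was detected in 71.2% of NKT barcodes with Il4 and 67.0% of those without. NKT barcodes with Il4 also carried Csf2 in 12.2%, against 8.23% without. The gene whose level followed Il13 most closely over the 28 sums was Il6 (r = 0.983), and Aqp9 followed Il4 (r = 0.958), both basophil-rich patterns. Il6 ranged from 1020 to 2603 CPM over the libraries in basophils and from 0 to 10.3 CPM in NKT barcodes. Basophils were also the gate with the highest immediate early sum, 92181 and 134218 CPM in GS and URI and 67334 and 200087 CPM in WT, and its part in their cytokine levels was not tested. Gata3, a regulator of type 2 cytokines in T cells, was at 265 and 323 CPM in GS and URI and 252 and 348 CPM in WT NKT barcodes, but at 0 in 3 of 4 basophil sums.

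Among the 7 source gates, transcripts of Csf2 were densest in NKT barcodes, at 34.4 CPM in GS and 27.8 CPM in URI, against 25.0 and 35.98 CPM in WT. The genotypes overlapped. Outside those gates, 25 barcodes gated as ILC2, another class of innate lymphocytes, were at 129 CPM, from 16 UMIs in 2 barcodes. Barcodes that fitted neither NK nor ILC1 (140) were at 42.6 CPM, with 16 of 18 UMIs in 1 barcode. The NKT level over all libraries was 30.6 CPM. NKT held 44.0% of all Csf2 UMIs, and its mean of 30.8 ± 5.22 CPM stood above Gamma-delta T at 19.2 ± 7.11, ILC1 at 14.8 ± 4.43 and NK at 6.74 ± 4.08 CPM (SD, n = 4). The step from NKT to Gamma-delta T did not pass (log2 0.71, SE 0.31, edgeR adjusted p = 0.162), whereas NKT exceeded NK by 2.15 (adjusted p = 6.97e-07). A UMI was found in 9.60% of NKT barcodes (2.84% thinned) and in 0 of 2343 neutrophils of the high S100 class. Its common receptor chain Csf2rb, which also serves interleukins 3 and 5, ranged from 734 to 1888 CPM in basophils and from 7.63 to 22.0 CPM in NKT barcodes.

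The growth factor gene Il2 was sparse, with 435 UMIs in 343 barcodes. NKT barcodes held 29.0% of them and CD4 T barcodes 87 of the 435. Its CD4 T level was steady, at 5.72 CPM in GS and 5.15 CPM in URI, against 5.83 and 5.38 CPM in WT. CD4 T (mean 5.52 ± 0.313 CPM) exceeded CD8 T (1.94 ± 1.22 CPM) by 1.42 on the log2 scale (SE 0.38, edgeR adjusted p = 0.00559). Neighbours above CD4 T in the order, ILC1, NKT and Gamma-delta T, did not differ past the threshold, and the ILC1 mean of 13.4 CPM rested on 10 UMIs. CD4 T barcodes with Il2 had Ifng in 43.5% (27 of 62), against 11.2% of those without. Foxp3, which marks regulatory T cells and whose product represses Il2, was detected in 197 CD4 T barcodes, and these had 1 Il2 UMI, a level of 0.944 CPM, against 5.84 CPM in the other 3178.

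The gene for lymphotoxin beta, Ltb, was carried by all 4 T cell gates and by ILC1 at like levels. Its mean level was 959 ± 178 CPM in NKT, 958 ± 101 in CD8 T, 925 ± 86.2 in CD4 T, 857 ± 112 in Gamma-delta T and 774 ± 58.2 in ILC1 barcodes, and no neighbours in that order differed past the threshold. ILC1 exceeded basophils (274 ± 69.1 CPM) by 0.93 on the log2 scale (SE 0.16, edgeR adjusted p = 1.28e-05), and basophils exceeded NK (61.2 ± 19.4 CPM) by 2.70 (SE 0.17, adjusted p = 1.44e-14). NK and ILC1, gated from the same CD3-low pool, thus stood far apart for Ltb. The NK gate held 70.8 CPM in GS and 38.0 CPM in URI, against 53.8 and 82.3 CPM in WT, and ILC1 held 756 CPM in GS and 800 CPM in URI, against 702 and 837 CPM in WT.

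A UMI of Ltb was found in 91.7% of CD8 T, 90.2% of CD4 T, 80.5% of B and 10.6% of NK barcodes (56.6%, 56.0%, 53.2% and 4.07% thinned). Monocytes, macrophages and dendritic cells had 14.6% (4.65% thinned) at a median of 6366 UMIs. Neutrophils with at least 100 S100a8 and S100a9 UMIs reached 66.4% (29.9% thinned), at 391.5 CPM in GS and 305 CPM in URI, against 368 and 414 CPM in WT, well above the NK level in each library. Its receptor gene Ltbr was scarce in T cells, between 2.97 and 7.17 CPM in CD4 T barcodes.

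Lta, which pairs with Ltb on the cell surface or is secreted alone, followed T and B cells but not NK cells. CD4 T barcodes had 60.4 CPM in GS and 56.7 CPM in URI, against 43.2 and 46.6 CPM in WT. NK barcodes had 0.805 CPM in GS and 2.20 CPM in URI, against 0.371 and 2.27 CPM in WT. The gates stood apart in every library. CD4 T (51.7 ± 8.15 CPM) exceeded NKT (42.5 ± 12.2) by 0.37 on the log2 scale (SE 0.14, edgeR adjusted p = 0.0311), and NKT, CD8 T (40.7 ± 6.48), Gamma-delta T (40.4 ± 5.73) and ILC1 (26.6 ± 25.1) did not differ past the threshold as neighbours. B cells lay at 60.1 CPM in GS and 56.9 CPM in URI, against 49.7 and 57.2 CPM in WT. Camk4, a calcium-dependent kinase of T cells, followed Lta most closely over the 28 sums (r = 0.934) and Spint2 followed Ltb (r = 0.950).

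Il10 was rare, with 328 UMIs in 93 barcodes, and it did not pass the filter on low counts in the comparison of gates, so no pair was tested. CD4 T barcodes held 32.3% of the UMIs (19.1% without GS), B cells 26.2%, other T cells 16.5% and CD8 T barcodes 10.4%. In the CD4 T gate it was at 15.9 CPM in GS and 3.55 CPM in URI, against 1.32 and 3.58 CPM in WT. The GS value came from 75 UMIs in 9 barcodes, and 37 of them lay in 1 barcode, without which GS was at 8.07 CPM. In URI, 20 UMIs lay in 6 barcodes, and the 2 WT libraries had 5 and 6 UMIs, each in 1 barcode.

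CD4 T barcodes with Il10 had Foxp3 in 41.2% (7 of 17, exact interval 18.4% to 67.1%), against 5.66% of those without. Maf, an activator of Il10, was found in 82.4% of CD4 T barcodes with Il10 and 22.8% of those without, and Ifng in 52.9% and 11.6%. The Foxp3-detected CD4 T barcodes had Il10 at 41.5 CPM (44 UMIs in 7 barcodes), against 4.21 CPM (62 UMIs in 10 barcodes) in the other CD4 T barcodes. GS held 28 of the 44 UMIs. By library the Foxp3-detected barcodes were at 119.7 CPM in GS and 24.9 CPM in URI, against 17.5 and 0 CPM in WT, and the other CD4 T barcodes at 10.5 CPM in GS and 1.74 CPM in URI, against 0 and 3.804 CPM in WT. In WT replicate 2 the order was thus the opposite, with 0 UMIs in 21 Foxp3-detected barcodes. The highest Il10 barcode, a CD4 T barcode of GS with 37 UMIs, had 25 Ifng UMIs and no Foxp3. The next in rank, an other T barcode of GS with 27 Il10 UMIs, had 9 Foxp3 UMIs.

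Il17a had 483 UMIs in 83 barcodes. Its level in the Gamma-delta T gate was 8.11 CPM in GS and 9.89 CPM in URI, against 47.9 and 27.9 CPM in WT. Its level in the CD4 T gate was 12.5 CPM in GS and 0.711 CPM in URI, against 7.95 and 20.9 CPM in WT. Both single libraries lay below WT in the Gamma-delta T gate, as 21.7% of all genes did in GS and 22.2% in URI. In CD4 T barcodes URI lay below WT, as 22.3% of all genes did, and GS lay between the WT libraries. With mixed T and B barcodes kept in the T gates, URI was at 6.67 CPM in CD4 T and no longer below WT replicate 1 (6.61 CPM). By mean, Gamma-delta T (23.5 ± 18.6 CPM) and CD4 T (10.5 ± 8.46) did not differ past the threshold (log2 1.58, SE 0.63, edgeR adjusted p = 0.0626), nor did CD4 T and NKT (4.54 ± 5.83, adjusted p = 0.143), and NKT exceeded CD8 T (0.545 ± 1.09) by 2.43 (SE 0.87, adjusted p = 0.0259). NK, ILC1 and basophil barcodes had 0 Il17a UMIs in all libraries.

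Other transcripts were read in the barcodes with Il17a. Ccr6, a chemokine receptor, was found in 68.0% of CD4 T barcodes with Il17a, against 5.10% of those without. Ifng went the other way: it was found in 0 of 14 Gamma-delta T barcodes with Il17a, against 52.7% of those without, and in 1 of 10 NKT barcodes with Il17a, against 68.7% of those without. No NKT barcode with Il17a had Il4, against 35.1% of those without. Over the 28 sums Il17a was followed closely by Il17re and Il1r1 (r = 0.909 and 0.887).

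**Figure D3:**
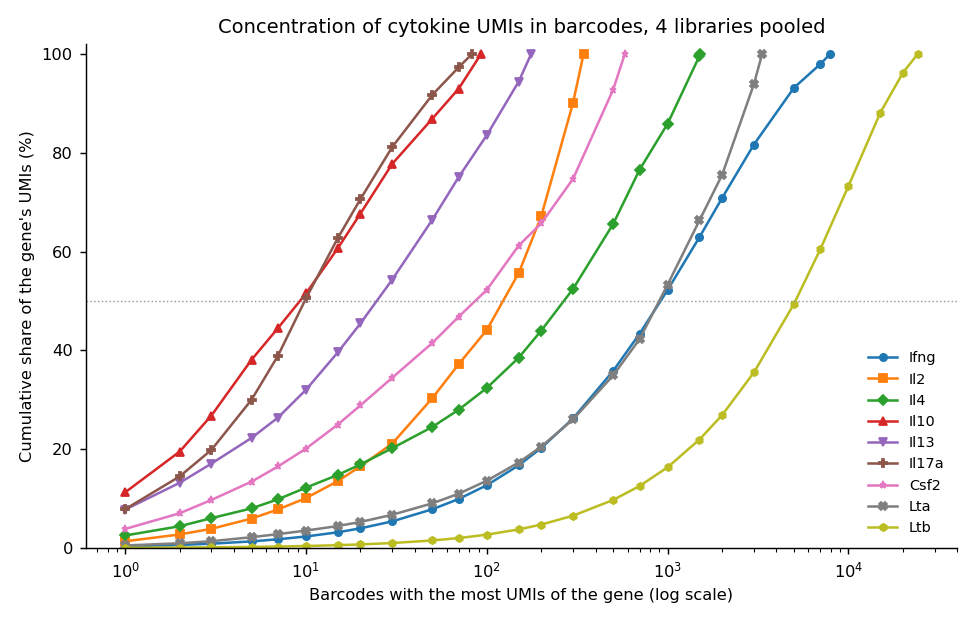
Cumulative share of a cytokine's UMIs (vertical axis, %) held by its highest barcodes (horizontal axis, number of barcodes on a log scale), 4 libraries pooled; the dotted line is 50%. The curves of Il17a and Il10 cross 50% at 10 barcodes and that of Ltb at 5091.

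How few barcodes carried a gene differed widely between members, as the plot of concentration shows. The 10 highest barcodes held 51.5% of Il10 UMIs, 50.5% of Il17a, 32.0% of Il13, 20.1% of Csf2, 12.2% of Il4, 10.1% of Il2, 3.55% of Lta, 2.35% of Ifng and 0.424% of Ltb. To reach 50% of UMIs took 10 barcodes for Il10 and Il17a, 25 for Il13, 88 for Csf2, 126 for Il2, 271 for Il4, 910 for Lta, 916 for Ifng and 5091 for Ltb. Il2 was rare without being concentrated: 283 of its 343 barcodes had 1 UMI, and 4 reached 5. Il17a was rare and concentrated, with 28 of 83 barcodes at 5 UMIs or more and 79.5% of its UMIs in them. Ifng also had most of its UMIs in such barcodes (78.5%), but spread over 2644 of them.

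The highest barcodes came from several gates. Of the 28 barcodes with at least 5 Il17a UMIs, 7 were CD4 T, 7 Gamma-delta T, 5 other T, 5 mixed and 3 NKT. Of the 35 such barcodes for Csf2, 20 were NKT, and the highest, with 43 and 35 UMIs, were mixed barcodes of URI. The highest Il13 barcodes were NKT barcodes of GS (36 UMIs, with 25 Ifng UMIs) and of URI (25 UMIs), followed by a URI basophil with 18 Il13 and 93 Il4 UMIs. That URI NKT barcode had 30630 UMIs over all genes, against a median of 6837 in the URI NKT gate. For Ifng the highest were a URI NKT barcode with 160 UMIs and a URI CD4 T barcode with 131.

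**Figure D4:**
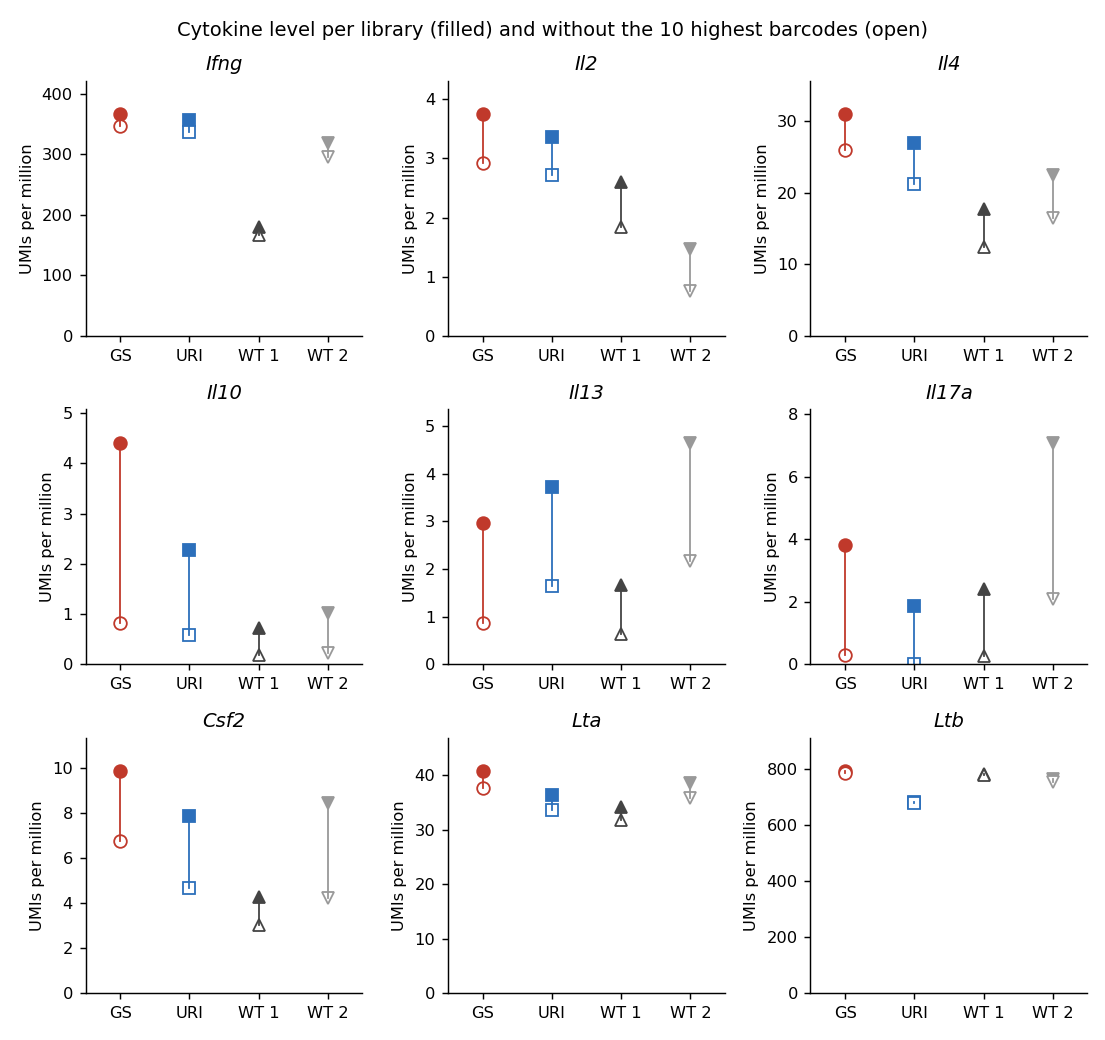
Level of each cytokine over all barcodes of a library (vertical axis, UMIs per 1000000, a separate scale for each gene; filled) and without its 10 highest barcodes (open), for GS, URI and the 2 WT libraries. Il10 in GS is at 4.41 CPM with all barcodes and at 0.825 CPM without the 10 highest, while the open and filled symbols of Ltb nearly coincide.

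Over all barcodes of a library, Ifng was at 366 CPM in GS and 357 CPM in URI, against 179 and 319 CPM in WT. Il4 was at 30.9 CPM in GS and 26.9 CPM in URI, against 17.7 and 22.5 CPM in WT. Il2 was at 3.74 CPM in GS and 3.37 CPM in URI, against 2.60 and 1.46 CPM in WT. These 3 genes were higher in GS and in URI than in either WT library, but by less than the gap between the WT libraries for Ifng. WT replicate 1, the lowest library for Ifng and Il4, was also the lowest in the immediate early sum, and the part of that in these levels was not tested. In a sum over all barcodes, fewer source cells and less RNA per cell cannot be told apart. NKT barcodes numbered 826 of 7846 in GS and 776 of 9096 in URI, against 499 of 8483 and 555 of 7453 in WT.

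Csf2 was at 9.87 CPM in GS and 7.88 CPM in URI, against 4.27 and 8.46 CPM in WT. Lta was at 40.7 CPM in GS and 36.3 CPM in URI, against 34.1 and 38.6 CPM in WT, and Ltb at 792 CPM in GS and 684 CPM in URI, against 784 and 765 CPM in WT. Csf2, Lta and Ltb were highest in GS, but URI lay inside the WT range for Csf2 and Lta and below it for Ltb. Il13 was at 2.97 CPM in GS and 3.73 CPM in URI, against 1.66 and 4.65 CPM in WT, inside the WT range in both. Il17a was at 3.82 CPM in GS and 1.85 CPM in URI, against 2.41 and 7.09 CPM in WT, so only URI lay outside.

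Il10 had the largest change of the 9 members in GS, at 4.41 CPM in GS and 2.28 CPM in URI, against 0.720 and 1.02 CPM in WT. Without the 10 highest barcodes of each library it was at 0.825 CPM in GS and 0.586 CPM in URI, against 0.194 and 0.222 CPM in WT. Those 10 barcodes held 81.3% of GS UMIs, 74.3% of URI UMIs and 73.1% and 78.3% of WT UMIs. Barcodes with any Il10 numbered 30 in GS and 31 in URI, against 17 and 15 in WT. The order of the groups was the same at both levels. However, taking out 10 removed a larger part of the WT barcodes with Il10, so the order left is no support for a change. After thinning, Il10 was found in 0.197% of GS and 0.0963% of URI barcodes, against 0.026% and 0.104% in WT. By that share URI lay inside the WT range and GS above it. At least 5 UMIs were found in 7 GS and 9 URI barcodes, against 1 in each WT library. By edgeR over all barcodes GS exceeded WT by 2.30 on the log2 scale (SE 0.81, unadjusted p = 0.0114, Benjamini-Hochberg adjusted p = 1).

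Genotypes were compared by the same edgeR method on sums per library, over all barcodes and in the 5 gates with at least 50 barcodes in each library. The spread came from the WT pair alone (1 residual degree of freedom), and each single library was assumed to vary like WT. Since each group pooled mice into 1 or 2 libraries, p-values measure the spread between these libraries, which may be technical. The WT pair itself differed in Y-linked transcripts (9.83 and 178 CPM) and in the immediate early sum (18476 and 40868 CPM). The part of these differences in the spread was not tested. The filter on low counts left 7 of the 9 members in CD4 T, 8 in CD8 T, 8 in NKT, 7 in Gamma-delta T, 3 in NK and 9 over all barcodes. Because GS and URI have 1 library each, it kept a gene that reached the limit in 1 library alone. No member was called for GS or for URI in any gate. The background was 0.0% of 64366 tests for GS minus WT, 0.0544% for URI minus WT and 0.0218% for GS minus URI, so a count of 0 was near that of all genes. By gate, URI minus WT called 0.0282% of genes in CD4 T, 0.00905% in CD8 T, 0.00946% in NKT, 0.264% in Gamma-delta T, 0.0% in NK and 0.0391% over all barcodes. GS minus URI called 0.0282%, 0.00905%, 0.0%, 0.0423%, 0.0% and 0.0469% in the same order, and GS minus WT 0.0% in each. At an unadjusted p under 0.05, GS minus WT had 1 member in CD4 T, 2 in CD8 T, 1 in Gamma-delta T and 1 over all barcodes, and URI minus WT had 1, 2, 1 and 0. Over all genes, GS minus WT had 30 of 10630, 59 of 11052, 91 of 9467 and 72 of 12786 at that p, and URI minus WT had 75, 37, 134 and 63. DESeq2 called 0 members.

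Over all barcodes GS lay above both WT libraries for 7 of 9 members, where 24.5% of all genes did, and below both for 0, where 18.3% did. URI lay above both for 4 members, where 22.3% did, and below both for Il17a and Ltb, where 15.1% did. None of these differences passed the test.

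In CD4 T barcodes GS lay above both WT libraries for 2 of 7 members tested (24.6% of genes) and below both for 2 (22.1%), and URI above for 2 (21.9%) and below for 3 (22.3%). In CD8 T barcodes GS lay above for 5 of 8 (24.5%) and below for 2 (19.5%), and URI above for 5 (21%) and below for 2 (18.3%). Those 8 include genes that passed the filter there only through some libraries: Csf2 through GS and URI, Il17a through GS and Il10 through URI. In NKT barcodes GS lay above for 2 of 8 (28.6%) and below for 0 (17.5%), and URI above for 1 (27.1%) and below for 2 (19.8%). Counts over so few members move by a large share with 1 gene, and they were not tested. In Gamma-delta T barcodes GS lay above for 3 of 7 (29.5%) and below for 1 (21.7%), and URI above for 2 (27.2%) and below for 3 (22.2%). In NK barcodes GS lay above for 2 of 3 (27.6%) and below for 0 (20.4%), and URI above for 1 (21.5%) and below for 2 (21.1%).

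In the NKT gate the Ifng change was 0.01 for GS (SE 0.52, edgeR adjusted p = 1) and 0.12 for URI (SE 0.52, adjusted p = 1), on the log2 scale. Its sign for GS rested on 1 WT library, with a change of 0.64 without WT replicate 2 and -0.43 without WT replicate 1. The NKT change of Il4 was 0.36 for GS (SE 0.37) and 0.07 for URI (SE 0.37), and that of Csf2 was 0.11 and -0.17, none of them called. The interferon gamma response list (20 genes) had 0 genes called over all barcodes for GS and for URI, with medians of 0.15 and 0.09 on the log2 scale, beside medians over all genes of -3.53e-05 and -0.0036.

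The lowest unadjusted p of a member against WT was that of Il17a in CD4 T barcodes, where URI minus WT was -4.24 (SE 1.04, unadjusted p = 0.000800, edgeR adjusted p = 0.773), from 4 UMIs in 2 barcodes of URI, against 30 and 35 UMIs in 9 and 8 barcodes of WT. Without a filter on low counts the adjusted p was 0.0172. In Gamma-delta T barcodes GS minus WT was -2.29 (SE 0.81, unadjusted p = 0.00473) and URI minus WT -1.98 (SE 0.78, unadjusted p = 0.0108), from 3 and 2 barcodes with Il17a in GS and URI, against 5 and 4 in WT. Neither passed after adjustment. In CD8 T barcodes the members with an unadjusted p under 0.05 against WT were Csf2, Il17a and Il10, each carried by few barcodes. Csf2 there was at 5.45 CPM in GS and 4.35 CPM in URI, against 1.20 and 0.750 CPM in WT, and 15 of 40 UMIs in GS and 22 of 36 in URI lay in 1 barcode each, against 2 of 10 and 1 of 2 in WT. Il17a in CD8 T barcodes had 16 UMIs in 2 barcodes of GS and 0 in the other libraries. Il10 in CD8 T barcodes had 0 UMIs in GS and 31 in 4 barcodes of URI, against 1 and 2 in WT. Csf2 passed the filter in CD8 T barcodes only through GS and URI, Il17a only through GS and Il10 only through URI. These were the libraries where each gene was high. The unadjusted p-values of these genes there are therefore no support for a change. In CD4 T barcodes Il10 was at a higher level in GS by 2.81 (SE 0.92, unadjusted p = 0.00696), also not called.

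**Figure D5:**
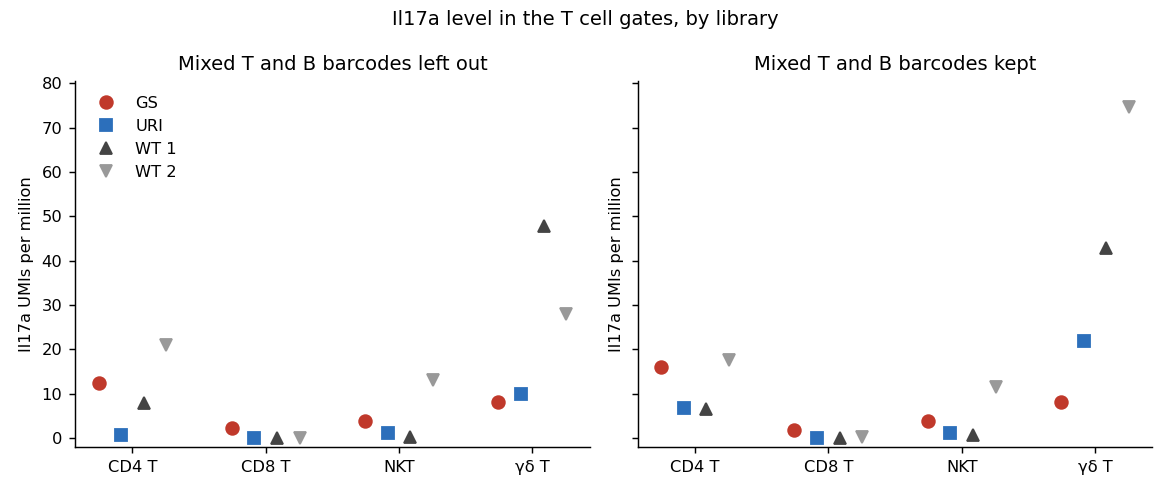
Il17a level (vertical axis, UMIs per 1000000) in 4 T cell gates by library, with barcodes that also carry B cell markers left out (left) or kept (right). In the CD4 T gate URI is at 0.711 CPM on the left and at 6.67 CPM on the right, beside WT replicate 1 at 6.61 CPM.

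Where the mixed T and B barcodes are placed changed the Il17a picture. The mixed gate held 67 of the 92 Il17a UMIs of URI in 5 barcodes and 29 of the 144 of GS in 3, against 2 of 87 and 35 of 160 in WT. With those barcodes returned to the T gates, an alternative added after seeing the data, CD4 T levels were 15.9 CPM in GS and 6.67 CPM in URI, against 6.61 and 17.5 CPM in WT. The URI minus WT change in CD4 T was then -0.81 in place of -4.24. Gamma-delta T levels were 8.10 CPM in GS and 21.9 CPM in URI, against 42.8 and 74.6 CPM in WT, both still below WT.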

How the data were processed

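The deposited matrices hold whole-number UMI counts per gene and barcode, with no normalisation, for 4 fixed-RNA single-cell libraries, made with Cell Ranger 8.0.0 against mm10 per the submitters' processing notes. Libraries listed 24041049 to 51920505 UMIs, and barcodes with at least 500 UMIs held 93.9% to 95.6% of them. The 59 rows of deprecated probes (0.0535% to 0.0710% of UMIs) were left out. The members and gene lists were chosen with earlier results of these data known.

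Barcodes were gated on raw marker counts, in a set order, as the report names the gates. Levels are UMIs per 1000000 UMIs in the same barcodes (CPM). Doublets were not removed in the main values. Sums per library and gate were tested with edgeR 4.0.16 in R 4.3.3 (TMM scaling, filterByExpr, quasi-likelihood test, Benjamini-Hochberg adjustment over all genes, threshold 0.05). Genotypes were compared over all barcodes and in gates with at least 50 barcodes in each library, and gates in 1 fit over 28 sums (18 residual degrees of freedom). A pair of gates with at most 3 UMIs of a member in each, and a member that failed the filter on low counts, were not tested. Intervals are exact (Clopper-Pearson, 95%). Shares were also taken after thinning each barcode to 1000 UMIs, leaving out shallower ones. Likeness is Pearson's r of log2(CPM + 10) over the 28 sums. All members were named, each tested in the tested gate with most of its UMIs, along with the genes of highest likeness to a member and genes of the lists where called. Results on 1 gene of these lists are not reported here. On simulated counts, 100 genes were changed 4-fold and 100 others 16-fold in GS. Of the 4-fold genes, the GS minus WT step recovered 88 in CD8 T (10960 genes tested), 75 in NKT (10453) and 93 over all barcodes (12745). The runs gave 10, 0 and 12 false calls. For the comparison of gates, 100 genes were changed 2-fold and 100 others 4-fold in NKT. Against CD8 T, 27 of the 2-fold and 100 of the 4-fold genes were recovered, with 3 false calls. A pair of gates that did not pass can thus still differ. Changed genes were drawn above a floor on expected counts, and 1 fixed dispersion served all genes. Such recovery does not describe members with few UMIs or a wider spread. Alternatives were DESeq2 1.42.0, RLE scaling, no filter, at least 1000 UMIs, stricter gates, each library left out and, added after seeing the data, mixed T and B barcodes kept in the T gates and removal of the 5% of barcodes with the highest Scrublet doublet score per library together with barcodes under 250 genes or over 10% mitochondrial UMIs. Sequences came from RefSeq (GRCm38.p6). Figures used matplotlib 3.10.9.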

Additional observations from a re-analysis of the deposited data

How the results depend on the processing

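No paired analysis was possible because the GS and URI groups have replicate 1 alone, so the groups share fewer than 2 replicate numbers. The count of members called was 0 for GS minus WT and GS minus URI under DESeq2, RLE scaling, no filter on low counts, a minimum of 1000 UMIs, doublet removal, stricter gates and mixed T and B barcodes kept. For URI minus WT it was 0 under the same alternatives except without the filter, where it was 1 (Il17a in CD4 T, log2 change -4.23, edgeR adjusted p = 0.0172). Of 45 tests between neighbouring gates, 14 passed in the main values. Over all genes and all 21 gate pairs, neighbours or not, 36.4% of tests were called, so the 14 are no mark of these genes. The count ranged from 13 with doublets removed or with stricter gates to 19 without the filter, with 17 where mixed barcodes were kept, and from 12 to 13 with each library left out in turn. None of these neighbours changed sign. No change that turned direction was called. With mixed barcodes kept, the NKT changes were -0.012 for Ifng in GS, -0.063 for Il4 in URI and -0.13 for Il13 in URI, all minus WT. The GS minus WT change of Il17a in CD4 T was 0.084 with stricter gates and 0.42 with mixed barcodes kept, against -0.18 in the main values. That of Lta in CD8 T was 0.0073 without the filter, 0.0094 with doublets removed and 0.018 with mixed barcodes kept, against -0.0082. Leaving out 1 WT library also turned changes in the tested source gates, none of them called. Without WT replicate 1, the GS minus WT change in NKT was 0.83 for Il2 (-0.32 in the main values), -0.43 for Ifng (0.01) and -0.16 for Csf2 (0.11), and the URI minus WT change was -0.30 for Il13 (0.48) and -0.32 for Ifng (0.12) in NKT and -0.031 for Il10 in CD4 T (0.67). Without WT replicate 2, it was 0.66 for Il17a in CD4 T and 0.24 for Lta in CD8 T in GS, and 0.15 for Csf2 (-0.17) and -0.060 for Il2 (0.53) in NKT of URI. The share of Il17a UMIs in CD4 T barcodes was 40.8% with mixed barcodes kept, against 26.5%. The cause was not tested. Il10, Il2, Il13 and Il17a had the fewest UMIs of the 9 members (328, 435, 462 and 483), which limits their precision. Genotypes were not compared within the ILC1 and basophil gates, which fell below 50 barcodes in at least 1 library. Sums per gate also move with the choice of markers.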
